A study of Homo sapiens with 5 samples.

Results

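Base excision repair removes single damaged or misplaced bases from DNA, and the enzymes that open it were measured here in irradiated prostate cancer cells with and without a hairpin against RB1. The members were chosen by name as 10 genes, 8 DNA glycosylases (NTHL1, NEIL1, NEIL2, NEIL3, OGG1, MUTYH, UNG and MPG) and the AP endonucleases APEX1 and APEX2. All 10 were among the 14812 genes measured by a probe set with a single gene name, each by 1 probe set. The tested arrays were 3 of LNCaP cells with a retroviral hairpin against RB1 (shRB), set against 2 of LNCaP cells with a scrambled control hairpin (shControl). LNCaP is an established prostate cancer line of human origin that responds to androgen. Both populations had passed puromycin selection and both received 10 Gy of ionizing radiation, and their RNA was taken 24 h after it. The radiation is therefore shared by every array, and nothing here compares irradiated with resting cells. No label states that replicates are separate cultures, and p-values then cover only array-to-array spread, which may be technical.

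A glycosylase finds a particular kind of damaged base, flips it out of the helix and cuts it from its sugar, which leaves an abasic (AP) site. An AP endonuclease then cuts the backbone beside that site, and a polymerase and a ligase fill and seal the gap. Ionizing radiation produces many of these lesions through reactive oxygen, alongside strand breaks. RB1 encodes the retinoblastoma protein, which binds E2F transcription factors and restrains the genes that drive S phase.

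None of the 10 genes passed the test between shRB and shControl (limma, Benjamini-Hochberg adjustment over all 14812 genes, threshold 0.05), a test that 1.07% of all genes passed, 0.695% with higher and 0.378% with lower values in shRB. The nearest was NTHL1, a glycosylase for oxidised pyrimidines, whose log2 intensity averaged 6.02 ± 0.18 (SD, n = 3) on the shRB arrays, against 5.20 ± 0.36 (SD, n = 2) on the shControl arrays, 1.77-fold higher as deposited (adjusted p = 0.0654). At an unadjusted p under 0.05 stood 3 members, NTHL1, the alkylbase glycosylase MPG and APEX2, all with a positive difference, against 18.1% of all genes in either direction and 10.9% with a positive one. Differences were positive for 7 members and negative for 3, which were NEIL2, OGG1 and APEX1. The RB1 probe set itself averaged 5.21 ± 0.06 on the shRB arrays, against 5.76 ± 0.08 on the shControl arrays (log2 difference -0.54, adjusted p = 0.0967), so the hairpin target stood lower in shRB without passing the same test.

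The DNA before the start sites of NTHL1 and APEX1 is shown because these genes had the largest positive and the largest negative difference among the members. That of UNG is shown because it alone of the members searched held a match to the E2F words. Sequences are those of RefSeq for GRCh38.p14, written from the base farthest upstream to the base before the start, and 9 of the 10 members had entries, with 14 start sites in all. Capitals mark matches to the E2F words TTTCCCGC, TTTCGCGC, TTTGCCGC and TTTGGCGC or to the E-box CACGTG, which reads the same on both strands. The NTHL1 stretch is chr16:2047835-2047984 on the minus strand and covers the 150 bases that separate NTHL1 from TSC2, the APEX1 stretch is chr14:20454976-20455225 on the plus strand, and the UNG stretch is chr12:109097922-109098171 on the plus strand, before the more downstream of its annotated starts.
NTHL1: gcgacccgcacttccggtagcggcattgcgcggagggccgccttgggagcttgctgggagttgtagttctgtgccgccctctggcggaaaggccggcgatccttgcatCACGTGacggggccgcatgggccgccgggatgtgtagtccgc
APEX1: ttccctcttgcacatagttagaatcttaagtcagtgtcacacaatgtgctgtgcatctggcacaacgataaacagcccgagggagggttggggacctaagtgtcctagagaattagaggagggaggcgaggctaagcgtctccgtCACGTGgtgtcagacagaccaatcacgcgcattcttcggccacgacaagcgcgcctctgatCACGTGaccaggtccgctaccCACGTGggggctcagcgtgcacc
UNG: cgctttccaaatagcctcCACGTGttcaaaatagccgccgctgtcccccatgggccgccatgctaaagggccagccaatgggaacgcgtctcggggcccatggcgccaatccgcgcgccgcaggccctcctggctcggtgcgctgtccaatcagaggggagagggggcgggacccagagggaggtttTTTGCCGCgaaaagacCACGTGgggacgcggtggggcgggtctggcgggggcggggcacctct

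Both strands of the 250 bases before each start were searched. An E2F word was found at 1 of the 14 member starts, in UNG, 56 bases before its start when counted to the last base of the match, and 2.79% of all 35116 RefSeq start sites have one in a window of that length. The E-box was found at 4 of the 14 member starts, 1 each of NTHL1, APEX1, MPG and UNG, and before 6.34% of all starts. APEX1 held 3 copies, 100, 39 and 18 bases before its start. NTHL1 held 1 copy, 37 bases before its start. No match overlapped another. A match is a run of letters and not a measured binding site, and these genes carried both positive and negative differences: of the 4 with an E-box, NTHL1, MPG and UNG stood higher in shRB and APEX1 lower.

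The deposited intensities are on a linear scale on which no value lies below 16, or 4 on the log2 scale. Such a floor compresses folds of dim genes, so a ratio is also given with 16 taken off each value. For RB1 the shControl level was 1.46-fold that of shRB as deposited and 1.80-fold with 16 taken off. The 3 shRB arrays correlated at r = 0.983 to 0.986 over the genes tested and the shControl arrays at 0.966. Pairs across the groups correlated at 0.955 to 0.970, so the shControl arrays were no more alike than some of those pairs. Array medians of all probe sets were 27.4 to 28.0 in shRB and 26.6 and 28.1 in shControl. Of 9 listed luminal prostate markers 6 were measured (KLK3, KLK2, FOLH1, HOXB13, KRT8 and KRT18), with summed intensities of 2966 to 3060 in shRB and 2951 to 3206 in shControl. Of 8 listed markers of other cells 3 were measured (DCN, KRT5 and KRT14), with log2 intensities of 4.21 to 5.59 on all arrays and sums of 81.2 to 99.0 in shRB and 81.0 to 91.8 in shControl.

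**Figure D1:**
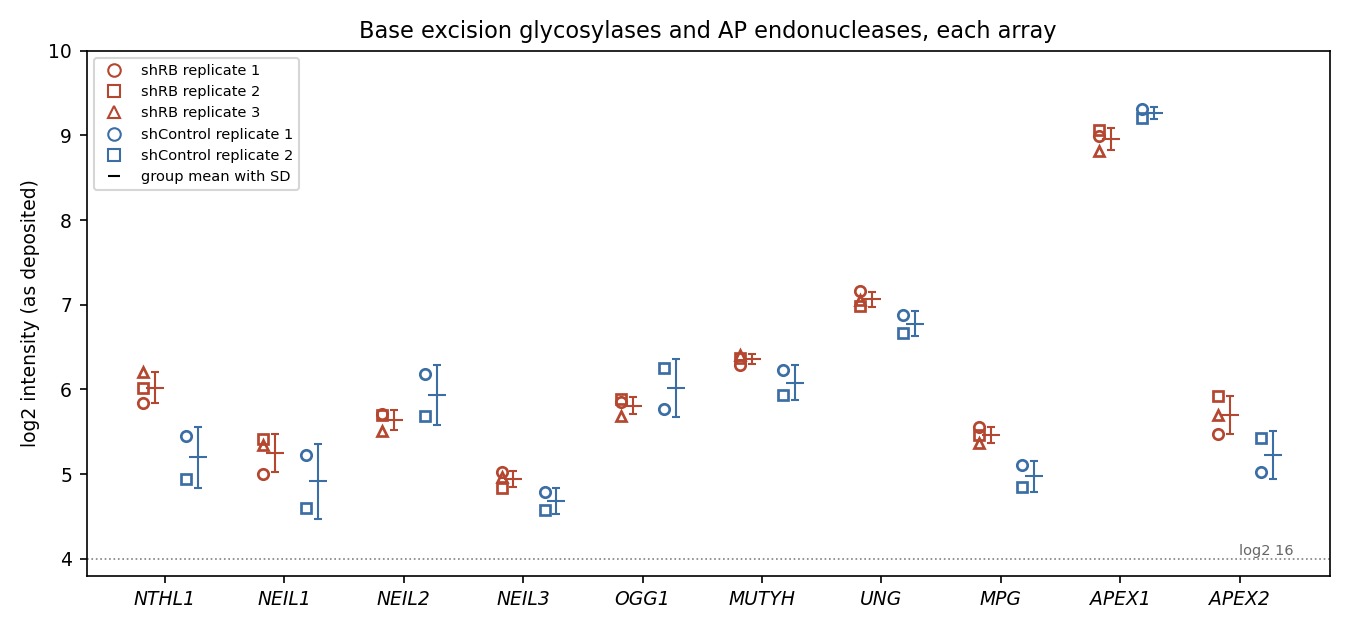
Log2 intensity of the 10 genes on each array, with shRB to the left of shControl for each gene, symbols for the replicates and bars for the group mean and SD (n = 3 and n = 2). The shRB arrays lie above both shControl arrays for NTHL1, NEIL3, MUTYH, UNG, MPG and APEX2, below both for APEX1, and overlap them for NEIL1, NEIL2 and OGG1, and the dotted line marks the floor of the deposited values at 4.

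NTHL1 had the largest difference of the 10 genes. It removes thymine glycol and other oxidised pyrimidines, and its probe set read 5.84, 6.02 and 6.21 in the shRB arrays, against 5.45 and 4.94 in the shControl arrays. Every shRB array lay above both shControl arrays, and the gap between the shControl arrays, 0.51, was wider than the range of the shRB arrays. The log2 difference was 0.82 (SE 0.19, 95% interval 0.42 to 1.23), the 95th highest of the 14812 genes, and the level with 16 taken off was 2.32-fold higher in shRB. NTHL1 passed the threshold without shControl replicate 1 (log2 difference 1.08, adjusted p = 0.0238) and did not pass without shControl replicate 2 (0.57, adjusted p = 0.14), and in both of these fits the spread comes from the shRB arrays alone and the lone shControl array is assumed to vary like them. Leaving out any 1 shRB array gave no pass, with adjusted p up to 0.298. It also passed when genes below the median intensity were left out (adjusted p = 0.0262) and when protein-coding genes alone were tested (adjusted p = 0.0392), so its call depends on which genes are tested with it.

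NEIL1, NEIL2 and NEIL3 form the NEIL family, which overlaps NTHL1 in substrates but belongs to a different structural family. NEIL1, which acts on oxidised bases ahead of replication forks, read 5.00, 5.41 and 5.34 in shRB, against 5.23 and 4.60 in shControl, and the groups overlapped. Its difference of 0.33 (95% interval -0.11 to 0.78, adjusted p = 0.415) shrank to 0.022 without shControl replicate 2. NEIL2, which prefers oxidised bases in bubbles and transcribed DNA, read 5.71, 5.70 and 5.51 in shRB, against 6.18 and 5.68 in shControl. A single array, shControl replicate 1, lay above the other 4, and the difference was -0.30 (95% interval -0.68 to 0.09, adjusted p = 0.405), or -0.045 without that array. NEIL3, which cycling cells use and which also unhooks interstrand crosslinks, read 5.02, 4.84 and 4.96 in shRB, against 4.79 and 4.58 in shControl. Its groups did not overlap, but all 5 values lay below the 5.25 of the median gene, near the floor, with a difference of 0.26 (95% interval -0.08 to 0.59, adjusted p = 0.398), or 0.15 without shControl replicate 2.

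OGG1 and MUTYH serve the same lesion, 8-oxoguanine: OGG1 removes the oxidised guanine opposite cytosine, and MUTYH removes the adenine that replication places opposite it. OGG1 read 5.85, 5.88 and 5.69 in shRB, against 5.77 and 6.26 in shControl, with shControl replicate 1 inside the range of the shRB arrays and shControl replicate 2 above all of them. The difference was -0.21 (95% interval -0.59 to 0.17, adjusted p = 0.566) and turned to 0.036 without shControl replicate 2. MUTYH read 6.29, 6.38 and 6.41 in shRB, against 6.23 and 5.94 in shControl. All 3 shRB arrays were higher than both shControl arrays, the nearest pair by little, and the difference was 0.28 (95% interval -0.06 to 0.62, adjusted p = 0.366), or 0.42 without shControl replicate 1 and 0.13 without replicate 2. The intervals of both enzymes include 0.

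UNG removes uracil that arises from cytosine deamination or from dUTP incorporated at replication, and MPG removes alkylated purines and hypoxanthine. UNG read 7.16, 6.98 and 7.05 in shRB, against 6.88 and 6.67 in shControl, without overlap. Its difference of 0.29 (95% interval -0.04 to 0.62) did not pass (adjusted p = 0.335) and was 0.19 without shControl replicate 2. MPG read 5.55, 5.46 and 5.37 in shRB, against 5.10 and 4.84 in shControl, and the lowest shRB array lay above the highest shControl array. The difference was 0.48 (SE 0.15, 95% interval 0.15 to 0.82), 1.40-fold as deposited or 1.80-fold with 16 taken off, and did not pass over all genes (adjusted p = 0.139). MPG was thus second in size to NTHL1 among the members. In shControl they averaged 4.97 ± 0.18 and 5.20 ± 0.36 (SD, n = 2 each). Over all arrays MPG, at 5.26, was brighter than 50.3% of genes and NTHL1, at 5.69, than 60.9%, where the median gene stood at 5.25.

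The AP endonucleases had differences of opposite sign. APEX1, the main AP endonuclease of human cells and also a redox regulator of transcription factors, read 8.99, 9.07 and 8.81 in shRB, against 9.31 and 9.21 in shControl. The shRB arrays were all lower than the shControl arrays, with a difference of -0.30 (95% interval -0.64 to 0.03, adjusted p = 0.315), and the shControl level was 1.23-fold that of shRB as deposited and 1.24-fold with 16 taken off. Its probe set was brighter than that of 97.7% of genes, so the floor has little bearing on this ratio. APEX2, a weaker AP endonuclease with 3′ to 5′ exonuclease activity that works with PCNA, read 5.48, 5.92 and 5.70 in shRB, against 5.03 and 5.43 in shControl. The groups were separated by the small gap between shRB replicate 1 and shControl replicate 2, and the difference was 0.47 (SE 0.18, 95% interval 0.07 to 0.87, adjusted p = 0.21), or 0.27 without shControl replicate 1.

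**Figure D2:**
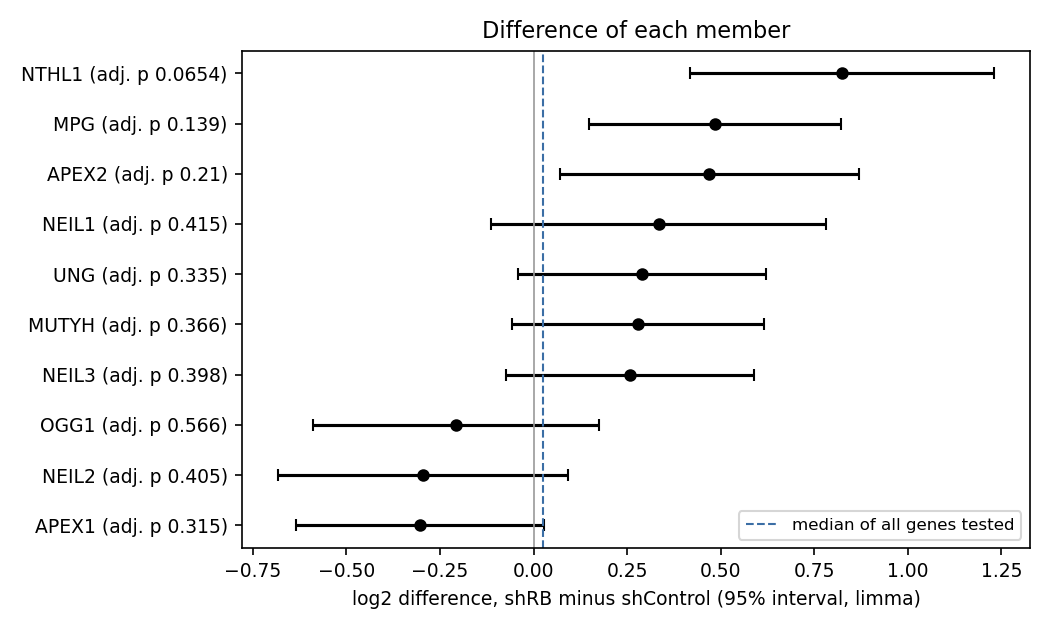
Log2 difference, shRB minus shControl, of each gene with its 95% interval from limma and its adjusted p, ordered by size, with the median of all genes tested as a dashed line. The intervals of NTHL1, MPG and APEX2 lie above 0, those of the other 7 genes include 0, and no adjusted p is below 0.05.

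Read as a set, the arrays of 7 members did not overlap between groups, 6 with shRB higher and 1, APEX1, with shRB lower, against 36.0% of all genes in either direction, 20.6% with shRB higher and 15.4% with shRB lower. The members were chosen with earlier results of these data known, so these counts and the median below are a description with no test. The median difference of the 10 was 0.28, beside 0.02 over all genes tested, and 53.8% of all genes had a positive difference. That median was 0.38 without shControl replicate 1 and 0.14 without shControl replicate 2. The shControl arrays were farther apart in these genes than in most: their median absolute gap was 0.35 in the members and 0.22 over all genes, and 8 of 10 members were lower in shControl replicate 2 than in replicate 1, as were 47.6% of all genes. Within shRB the median range was 0.20 in the members and 0.26 over all genes. The part that this spread has in the differences was not tested beyond leaving out each array.

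**Figure D3:**
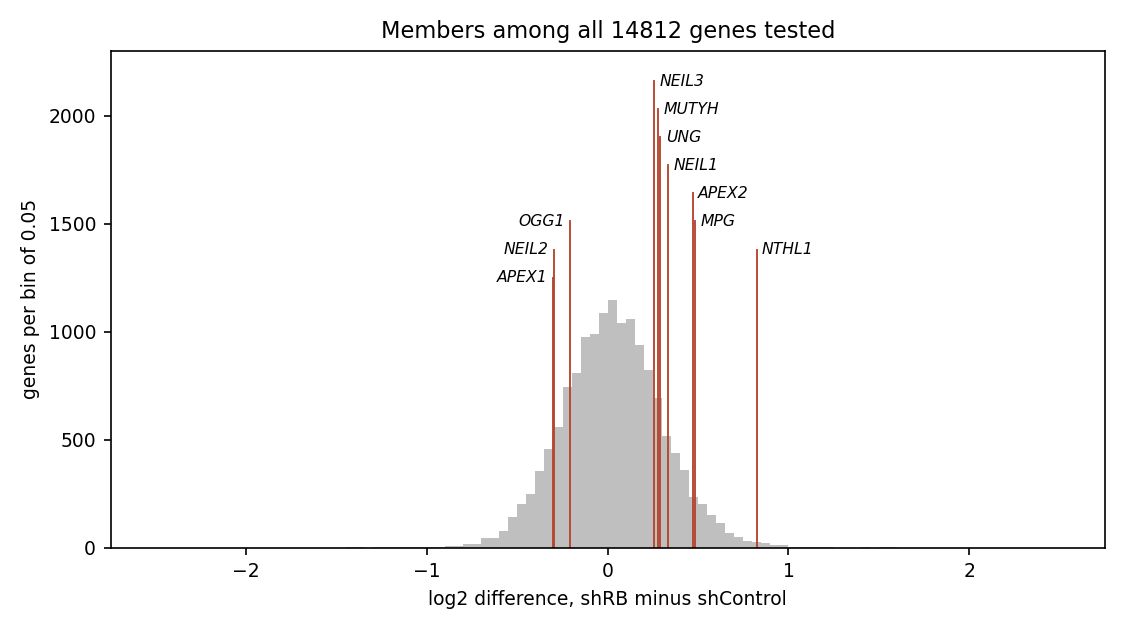
Histogram of the log2 difference, shRB minus shControl, over the 14812 genes tested, in bins of 0.05, with a line for each member whose height only spaces the names. NTHL1 at 0.82 lies in the upper tail, MPG and APEX2 on the upper shoulder, and the other members within the bulk, with APEX1, NEIL2 and OGG1 left of 0.

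A single scaling factor per array cancels in differences within an array, though a normalisation that depends on intensity need not. The value of NTHL1 was therefore also followed relative to the other members, array by array, with the mean of the shControl arrays set to 0. Relative to NEIL2 it stood at 0.87, 1.05 and 1.44 in shRB, against 0.00429 and -0.00429 in shControl, a mean of 1.12 on the log2 scale. Both genes were lower in shControl replicate 2 than in replicate 1 by nearly the same amount, so their ratio was almost equal on those arrays. Relative to APEX1 it stood at 0.91, 1.01 and 1.46 in shRB, against 0.20 and -0.20 in shControl. Relative to OGG1 it stood at 0.81, 0.95 and 1.33 in shRB, against 0.50 and -0.50 in shControl. NEIL2, APEX1 and OGG1 are the members with negative differences, so the ratios to them were bound to be the largest. Relative to the members with positive differences, the shRB mean was smaller, from 0.34 (MPG) to 0.57 (NEIL3). Of the 9 other members, 7 gave shRB arrays all above both shControl arrays, and MPG and APEX2 gave an overlap. The same count was not made over all genes. These values are a description with no test, since NTHL1 was known to have the largest difference, and a ratio shows unequal change without saying which gene moved.

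The neighbouring genes were read beside the members because several share intergenic DNA. TSC2, which encodes the tuberin subunit of an mTORC1 inhibitor, lies next to NTHL1 across the 150 bases printed above and read 7.80, 7.79 and 7.84 in shRB, against 7.74 and 7.75 in shControl. Its difference was 0.06 (adjusted p = 0.847), where that of NTHL1 was 0.82. NPW, a neuropeptide gene 2 genes away on the other side of NTHL1, differed by 0.56 (adjusted p = 0.095). OSGEP, a tRNA-modifying enzyme gene separated from APEX1 by 413 bases, read 6.37, 6.23 and 6.35 in shRB, against 6.74 and 6.21 in shControl, an overlap (log2 difference -0.16, adjusted p = 0.67). PIP4P1, which overlaps APEX1, differed by 0.27 (adjusted p = 0.416). NTHL1 and APEX1 are the members at the ends of the range, so nearby genes with differences nearer to 0 were likely beforehand. No conclusion is drawn from them.

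Among the other neighbours, 1 passed the test. The kinase gene TESK2, which lies 2 genes from MUTYH, fell by 0.89 on the log2 scale (5.01 ± 0.23 in shRB, n = 3, against 5.90 ± 0.19 in shControl, n = 2, SD; adjusted p = 0.0403), opposite in sign to MUTYH. It did not pass without shControl replicate 2 or without any 1 of the shRB arrays, with adjusted p up to 0.23, nor with array weights (0.0581), with 16 subtracted and 4 added before the logarithm (0.149) or with the replicate number as a block (0.234). HPDL beside MUTYH (0.22), NPRL3 (-0.24) beside MPG, RHBDF1 (0.33), 2 genes from MPG, and ACACB (-0.41) beside UNG did not pass. Their adjusted p was 0.281 to 0.453. CPNE9 (0.15) and CAMK1 (0.14) near OGG1, and COMMD4 (0.13) and the microRNA gene MIR631 (0.09) near NEIL1, had adjusted p of 0.698 to 0.822. In the annotation 8 of the 10 members overlap another gene, among them MUTYH with TOE1, MPG with NPRL3 and OGG1 with CAMK1, and the strand that each probe set reads is not given in the sources used here.

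None of the measured genes in the lists for the rest of base excision repair, strand-break poly(ADP-ribose), the nucleotide pool and direct reversal passed the threshold either. Other repair pathways had no list of their own and are not covered. Of 63 genes in 6 lists, 27 were measured, 18 with positive and 9 with negative differences, and 2 stood at an unadjusted p under 0.05 (limma), both with a positive difference, or 7.41% beside the 18.1% of all genes. The other glycosylases were all measured: TDG, which removes thymine and uracil opposite guanine, read 7.80 ± 0.14 in shRB and 8.07 ± 0.10 in shControl (log2 difference -0.27, adjusted p = 0.38), without overlap. SMUG1, a uracil glycosylase, differed by 0.24 (adjusted p = 0.489), or 0.038 without shControl replicate 2, and MBD4, which acts at methylated CpG sites, by 0.08 (adjusted p = 0.803). Of the list for gap filling, ligation and scaffold, 9 of 29 genes were measured, 5 positive and 4 negative, with a median of 0.03. These 9 include no DNA polymerase and no DNA ligase, so the enzymes that fill and seal the gap were not tested. The largest difference there was that of HUS1, a subunit of the 9-1-1 clamp that stimulates several of these enzymes, which averaged 7.58 ± 0.08 in shRB, against 7.18 ± 0.17 in shControl (log2 difference 0.40, adjusted p = 0.204). RAD1, of the same clamp, differed by 0.18 (adjusted p = 0.546) and PCNA, the sliding clamp of long-patch repair, by 0.18 (adjusted p = 0.562).

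The list of genes that act with poly(ADP-ribose) at strand breaks had 6 of 7 measured, 5 positive and 1 negative, with a median of 0.12. CHD1L differed by 0.22 (adjusted p = 0.465), HPF1 by 0.22 (adjusted p = 0.569) and PARP2 by 0.16 (adjusted p = 0.638). Enzymes that clean the nucleotide pool had 7 of 8 measured, 5 positive, with a median of 0.08, and the dCTP pyrophosphatase DCTPP1 averaged 7.96 ± 0.12 in shRB, against 7.57 ± 0.16 in shControl (log2 difference 0.39, adjusted p = 0.222). ITPA, which removes deaminated purine nucleotides, differed by 0.23 (adjusted p = 0.457) and the dNTPase SAMHD1 by -0.24 (adjusted p = 0.52). For direct reversal of alkylation, 2 of 6 were measured, MGMT at 0.30 (adjusted p = 0.313) and FTO at -0.12 (adjusted p = 0.727). The cytidine deaminases that make uracil in DNA, the source of a UNG substrate, are not analysed here, with 0 of 10 measured.

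Antioxidant enzymes limit the oxidised bases that most of these glycosylases act on, and 17 of 24 were measured, 14 positive and 3 negative, with a median of 0.16. Over all genes tested 53.8% of differences were positive, with a median of 0.02. GPX4, the lipid peroxide reductase, averaged 9.20 ± 0.04 on the shRB arrays, against 8.66 ± 0.13 on the shControl arrays (log2 difference 0.54, adjusted p = 0.0976). The mitochondrial peroxidase PRDX3 differed by 0.36 (adjusted p = 0.233) and GPX1 by 0.31 (adjusted p = 0.311). Because UNG and NEIL3 are known as genes of cycling cells, a list of S-phase and E2F-regulated genes was read beside them: 22 of 24 were measured, 12 positive and 10 negative, with a median of 0.01. The G1/S cyclin gene CCNE1 (0.53, adjusted p = 0.112), the helicase subunit gene MCM4 (0.44, adjusted p = 0.152) and the replication factor gene GINS2 (0.47, adjusted p = 0.16) had the smallest p there. At an unadjusted p under 0.05 (limma) stood 5 of the list, or 22.7% beside the 18.1% of all genes. They were these 3 and, with negative differences, CCNA2 (-0.40, adjusted p = 0.218) and CDC6 (-0.35, adjusted p = 0.276). CCNA2 and CDC6 were named after their values were seen.

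**Figure D4:**
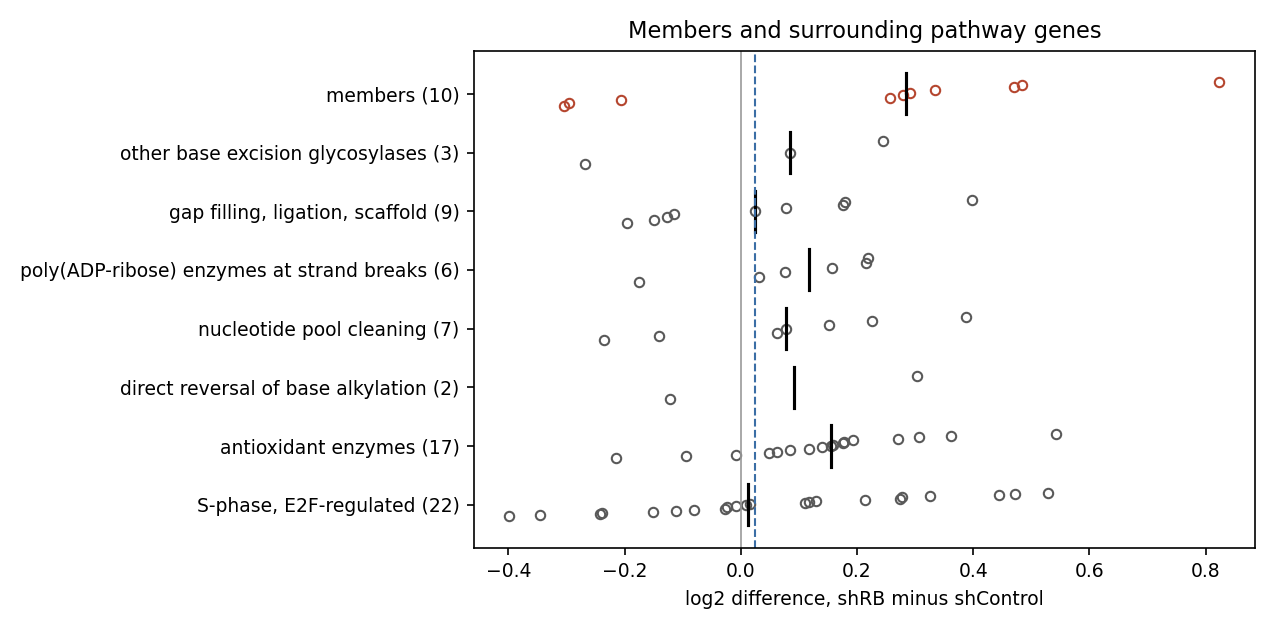
Log2 difference, shRB minus shControl, of each measured gene (circles) in the members and in 7 surrounding lists, with the number measured in brackets, a black bar for each median and a dashed line for the median of all genes. The members reach from -0.30 to 0.82, a wider range than the lists for gap filling, poly(ADP-ribose) enzymes or pool cleaning, and no circle passed the test.

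By likeness of pattern, the genes nearest to NTHL1 were ANKRD10, ZPLD1 and NUDT22, with Euclidean distances of 0.08, 0.12 and 0.13 between log2 values over the 5 arrays, each gene centred on its own mean. The choice by distance fixes that their array order and differences resemble those of the gene they were matched to, so these values are a description with no test. ANKRD10, an ankyrin repeat gene, averaged 6.35 ± 0.15 in shRB and 5.57 ± 0.40 in shControl, with the same order of arrays as NTHL1. It differed by 0.78, ZPLD1 by 0.76 and NUDT22, a Nudix hydrolase, by 0.73. Nearest to APEX1 were ADIRF, the ferritin autophagy receptor NCOA4, and TMC4, at distances of 0.04, 0.05 and 0.06. Their differences were -0.29, -0.34 and -0.27.

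**Figure D5:**
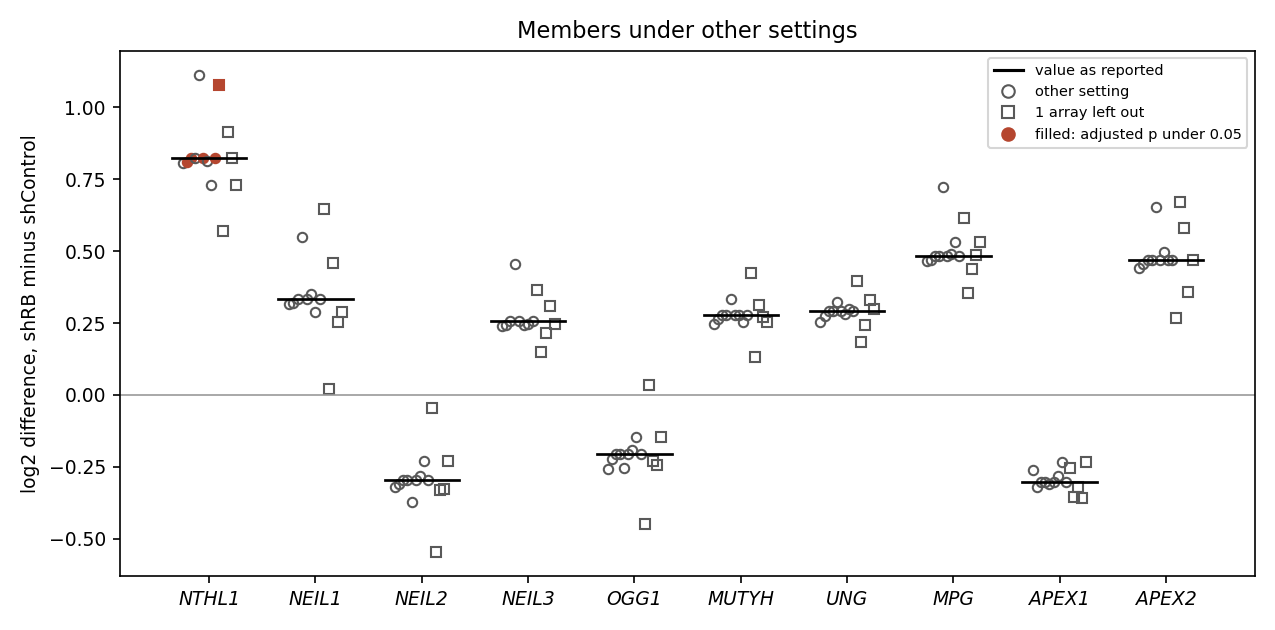
Log2 difference, shRB minus shControl, of each member as reported (black bars), under up to 9 other ways of processing (circles; 8 for NEIL1 and NEIL3, which the filter on dim genes removes) and with 1 array left out (squares), with filled symbols where the adjusted p is below 0.05. NTHL1 is above 0 in all 14 and filled in 5 of them, 1 of which has a single shControl array and takes its spread from shRB alone, no other member is filled, and OGG1 crosses 0 without shControl replicate 2.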

How the data were processed

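Single-colour arrays of 5 LNCaP samples were used, grouped by the sample titles. The authors deposited linear intensities, 1 value for each probe set. Not given in the sources used here were their summary method, background correction, normalisation, software and build. Of 44607 probe sets, 15835 carried 1 gene symbol in the platform annotation, 0 several and 28772 none. Symbols were updated by Entrez identifier (RefSeq, GRCh38.p14, all matched), and the brightest probe set by mean log2 value was kept for each of 14812 genes. The deposited intensities were log2-transformed with no further normalisation or filter and fitted with limma (version 3.58.1, under R version 4.3.3; lmFit, then eBayes, 2 groups, two-sided), adjusted by Benjamini-Hochberg over all genes. The code of the fit was checked on simulated data, independent normal values with limma's own variances. Those data had no floor and equal spread in both groups, so they do not show its power on these arrays. The members, the lists and the naming rule were chosen with earlier results of these data known. That rule took all members, RB1, the 3 genes of each list with the smallest p, the nearest measured gene within 2 on each side, and the 3 genes most like NTHL1 and APEX1 in pattern. Each array was left out in turn, and 9 other settings were tried. The number of arrays limits the precision. Some of the listed marker genes are not reported here.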

Additional observations from a re-analysis of the deposited data

How the results depend on the processing

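The number of members past the threshold was 0 as reported and 1, NTHL1, with array medians subtracted (adjusted p = 0.0493), without genes below the median intensity (0.0262, 8 members tested), with an intensity trend and robust variances (0.0261), with protein-coding genes alone (0.0392) and at a threshold of 0.1 (0.0654). It was 0 to 1 over the 5 fits without 1 array, with the 1 in a fit with a single shControl array, assumed to vary like shRB. The members' median was 0.39 with 16 subtracted and 4 added before the logarithm, and 0.14 to 0.38 without 1 array. Of the list genes, 1 (GPX4) passed without dim genes and 1 (GPX4) with the trend. RB1 passed in 1 of the 14 other settings, without genes below the median intensity (adjusted p = 0.0489). Signs turned in 1 of the 5 fits without 1 array for OGG1 (-0.45 to 0.036), PARP2 (-0.014 to 0.33), CAMK1 (-0.038 to 0.33) and COMMD4 (-0.038 to 0.30), without shControl replicate 2, and for OSGEP (-0.42 to 0.10) and MIR631 (-0.14 to 0.33), without shControl replicate 1. The cause was not tested. Over all genes the test called 159 (64.8% higher), against 385 without dim genes, 426 with the trend, 88 with array weights, 13 with 16 subtracted (30.8% higher) and 22 to 411 without 1 array. With the replicate number as a block it called 24 genes and no member, and NTHL1 differed by 0.73 (adjusted p = 0.273). Only shRB has a replicate 3, so the block takes that array out of the comparison. The difference of NTHL1 without shRB replicate 3 was likewise 0.73. Deviations of same-numbered arrays from their group means correlated at -0.02 and 0.05. Both values rest on the same gap between the shControl arrays, so they cannot show whether same-numbered arrays were prepared together.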
